A study of Mus musculus with 9 samples.

Results

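The genes described here are 10 members of BMP and TGF-beta signalling, chosen by name and looked up by symbol among the 24054 genes listed in each library: the ligands *Tgfb1* and *Bmp2*, the receptors *Tgfbr1*, *Tgfbr2*, *Bmpr1a* and *Bmpr2*, the transducer *Smad3*, the inhibitor *Smad7*, and the target genes *Id1* and *Id3*. All 10 were found, and all 10 passed the filter of an average count of at least 1 read per library. They were followed across 3 groups of 3 libraries of type 2 dendritic cells sorted from mouse spleen as live, autofluorescence-negative MHCII+ CD11c+ CD11b+ cells: TOM+ cDC2 and TOM- DC2 from mice at postnatal day 8, called young here, and TOM+ cDC2 from adult mice aged 9 weeks (1 library) or 8 weeks (2 libraries). All mice were C57BL/6 and carried Clec9a-Cre/Cre and Rosa-tdTomato/tdTomato, so that Cre made from the *Clec9a* locus, which is active in committed dendritic cell progenitors, turned on the red protein TOMATO for good, and no group kept an unmodified *Clec9a* allele. Spleens of young mice were pooled before the sort. The comparison of young TOM+ cDC2 with adult TOM+ cDC2 asks about age, that of young TOM+ cDC2 with young TOM- DC2 about a history of *Clec9a* expression at 1 age, and that of young TOM- DC2 with adult TOM+ cDC2 holds both differences together. Splenic cDC2 include cells high and low in the surface protein ESAM. The study states that the ratio of ESAM-high to ESAM-low cells was still slightly lower at the young age than in adults. Age and this make-up cannot be told apart here.

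Ligands of this family bind pairs of type I and type II serine/threonine kinase receptors on the cell surface. TGF-beta acts through TGFBR2 and TGFBR1, which phosphorylate SMAD2 and SMAD3, whereas BMPs act through type II receptors such as BMPR2 and type I receptors such as BMPR1A, ACVR1 and ACVRL1, which phosphorylate SMAD1, SMAD5 and SMAD9. Both branches use SMAD4 to reach the nucleus, both are held back by the inhibitory SMAD7, and SMAD6 acts mainly on the BMP branch. The ID proteins, which bind basic helix-loop-helix factors and keep them off DNA, are well-known targets. TGF-beta is secreted in a latent form and has to be released before it can signal, and it is known in dendritic cells for its part in the development of Langerhans cells and in the induction of regulatory and Th17 cells.

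Levels are given in the deposited TPM (a share of all transcripts, corrected for transcript length, so that genes can be compared with each other), with the SD of each set of 3 libraries after the mean. Read counts were compared with edgeR's quasi-likelihood test over all 14452 genes that passed the filter, with Benjamini-Hochberg adjustment (padj). A gene was called where its log2 fold change (log2FC) was above 1 or below -1 with padj under 0.05, and log2FC is written as the first group minus the second. The labels do not say whether libraries of a group came from separate pools or mice, although the study calls them biological replicates, and the p-values measure the spread between these libraries. In bulk libraries such as these, fewer cells with a transcript and less transcript per cell cannot be told apart.

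Reads on genes ranged from 12783252 to 22809401 per library. All 9 cDC2 markers looked up were detected in every group, and their summed level was 17462 to 18971 TPM in young libraries and 29865 to 32093 TPM in adult ones, nearly all of it the MHCII gene *H2-Ab1*. The others went both ways by padj: *Itgam* (147 ± 21.4, 147 ± 18.9 and 77.9 ± 7.24 TPM) and *Sirpa* (753 ± 97.4, 688 ± 75.5 and 470 ± 12.5 TPM) were lower in adults, and *Clec4a4*, *Cd209a*, *Flt3* and *Itgax* were higher. Of genes that mark other cells, those of ILC3 summed to 29.9 to 38.0 TPM in young TOM- DC2 and to 3.33 to 5.53 TPM in the other groups, those of macrophages to 115 to 143 TPM in young TOM+ cDC2, 180 to 224 TPM in young TOM- DC2 and 77.4 to 112 TPM in adults, and those of B cells, T cells, cDC1, pDC, monocytes and neutrophils to at most 80.8, 10.7, 207, 164, 85.2 and 17.3 TPM in any library. Young libraries carry the numbers 81, 91 and 92 in their deposited names, which are replicates 1, 2 and 3 in both young groups. Young libraries with the same number deviated together from their group means (correlation over 10112 genes 0.746, 0.501 and 0.517). Adult replicates 1, 2 and 3 carry the numbers 91, 92 and 95. Whether 91 and 92 stand for the same thing at both ages is not stated, and number 81 has no adult library. Where the number was used as a block, it covered young libraries only. Both young libraries of number 81 stood apart: 8 immediate early genes (*Fos*, *Fosb*, *Jun*, *Egr1*, *Egr2*, *Ier2*, *Atf3* and *Dusp1*) summed to 6283 and 6002 TPM in them and to 9647 to 9969 TPM in the other young libraries. One young TOM- DC2 library, replicate 1, also held 644 TPM of erythroid genes against at most 40.2 TPM in any other library.

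In both comparisons with adults, 3 of the 10 genes were called. *Bmp2* and *Smad7* were higher in adult TOM+ cDC2 and *Id1* was higher in cells from young mice. The share of all tested genes called between young and adult TOM+ cDC2 was 12.8%, beside which 3 of 10 is a small count. By padj alone, 5 of the 10 passed, against 40.6% of all genes. Between young TOM- DC2 and adult TOM+ cDC2, 11.3% of all genes were called and 3 of the 10, and 36.3% passed by padj alone and 4 of the 10. These comparisons share the adult libraries and are not independent of each other. Between young TOM+ cDC2 and young TOM- DC2, 1.18% of all genes were called, 1.6% passed by padj alone, and none of the 10 did either by edgeR or by DESeq2, at the 0.05 threshold. In this fit, which ignores the shared numbers, none of the 10 had an unadjusted edgeR p under 0.05, the smallest being 0.0967 for *Tgfb1*. With the number as a block, the unadjusted edgeR p was 0.0404 for *Tgfb1* and 0.0474 for *Smad7*, and no padj was under 0.355.

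**Figure D1:**
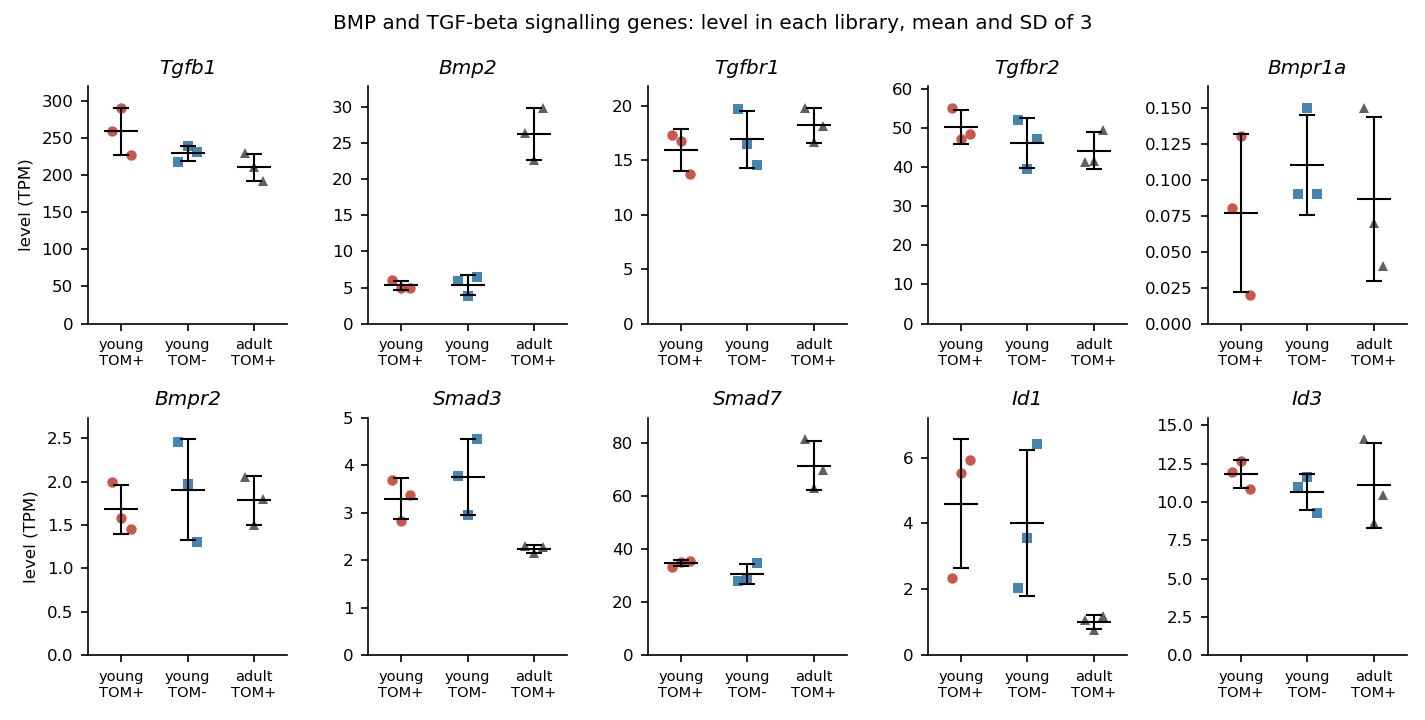
Level in TPM (linear axes that start at 0) of the 10 genes in each library, with red circles for young TOM+ cDC2, blue squares for young TOM- DC2 and grey triangles for adult TOM+ cDC2, and bars for the mean and SD of 3 libraries. *Bmp2* lies at 3.82 to 6.40 TPM in young and 22.7 to 29.9 TPM in adult libraries, *Smad7* at 27.8 to 35.4 and 63.1 to 81.4 TPM, and *Id1* at 2.03 to 6.40 and 0.76 to 1.18 TPM.

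Promoter windows from RefSeq (GRCm38.p6) were matched to 7 of the 10 genes, *Bmpr1a*, *Bmpr2*, *Tgfb1*, *Tgfbr1*, *Tgfbr2*, *Smad3* and *Id3*, and to *Smad6*, *Cdkn2b* and *Id2* of the wider pathway. The 250 bases before the annotated start were searched on both strands for GGCGCC, a GC-rich element that BMP-branch SMADs can bind, and CAGAC, the core of the SMAD3 and SMAD4 element. These were found in 9.59% and 42.2% of all 32851 windows. Shown are *Smad3*, which passed by padj in both comparisons with adults, *Id3*, the relative of *Id1* that did not pass, and, chosen after their values were seen, *Smad6* and *Cdkn2b*, a BMP and a TGF-beta target that were called in opposite directions. They are written 5′ to 3′ on the strand of the gene, with matches to either motif in capitals (GTCTG is CAGAC on the other strand).
Smad6, chr9:64022060-64022309, minus strand: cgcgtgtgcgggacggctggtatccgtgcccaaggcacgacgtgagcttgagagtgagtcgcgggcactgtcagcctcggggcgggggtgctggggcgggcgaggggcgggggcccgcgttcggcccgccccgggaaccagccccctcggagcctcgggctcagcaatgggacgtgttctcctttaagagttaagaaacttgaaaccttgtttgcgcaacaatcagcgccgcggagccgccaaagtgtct
Cdkn2b, chr4:89311033-89311282, minus strand: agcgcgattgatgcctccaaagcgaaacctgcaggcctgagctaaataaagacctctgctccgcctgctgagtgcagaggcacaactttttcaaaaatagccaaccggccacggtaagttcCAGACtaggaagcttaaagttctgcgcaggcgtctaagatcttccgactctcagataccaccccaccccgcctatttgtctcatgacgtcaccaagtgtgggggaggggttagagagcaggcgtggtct
Smad3, chr9:63757995-63758244, minus strand: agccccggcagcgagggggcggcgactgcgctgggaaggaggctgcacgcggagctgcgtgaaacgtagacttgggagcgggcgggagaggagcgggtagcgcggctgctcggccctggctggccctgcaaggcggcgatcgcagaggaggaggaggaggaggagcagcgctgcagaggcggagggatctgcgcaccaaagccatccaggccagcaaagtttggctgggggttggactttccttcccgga
Id3, chr4:136143572-136143821, plus strand: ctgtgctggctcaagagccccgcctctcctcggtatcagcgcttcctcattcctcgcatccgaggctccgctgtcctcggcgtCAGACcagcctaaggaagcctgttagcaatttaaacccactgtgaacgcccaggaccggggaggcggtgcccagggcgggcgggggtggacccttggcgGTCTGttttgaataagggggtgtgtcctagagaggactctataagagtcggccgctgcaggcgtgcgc
*Cdkn2b* held 1 copy of CAGAC and *Id3* held 2, on opposite strands, while the windows of *Smad6* and *Smad3* held neither motif. Of the windows not shown, CAGAC was found once each in *Tgfbr2* and the downstream start of *Tgfbr1*, GGCGCC once each in *Bmpr1a*, *Bmpr2*, *Id2* and the upstream start of *Tgfbr1*, and neither in *Tgfb1*. A match of these letters is a description of the window and not of a bound site.

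Among the ligands, *Bmp2* changed and *Tgfb1* did not pass the test. BMP2 is a secreted ligand that binds BMPR1A and BMPR2. *Bmp2* stood at 6.05, 4.94 and 4.88 TPM in the 3 libraries of young TOM+ cDC2, at 5.96, 3.82 and 6.40 TPM in young TOM- DC2 and at 26.5, 22.7 and 29.9 TPM in adult TOM+ cDC2. The lowest adult library was above the highest young library by a wide gap, and both young groups overlapped. Adult TOM+ cDC2 held 5.42-fold more than young TOM+ cDC2 (log2FC -2.44 ± 0.163 SE, 95% confidence interval -2.79 to -2.08, padj = 6.25e-07) and 5.45-fold more than young TOM- DC2 (log2FC -2.45, padj = 9.49e-07). The young groups differed by a log2FC of 0.01, with an interval of -0.36 to 0.37. The gene lies at chr2:133552159-133562885 (GRCm38, plus strand), and no exon of another GENCODE M21 gene overlaps its exons. Endothelial cells are another known source of *Bmp2*. Their 8 marker genes summed to 47.0 to 62.1, 49.8 to 63.0 and 55.1 to 60.3 TPM in the 3 groups, nearly all of it *Pecam1*, which was higher in adults by padj (log2FC -0.30 and -0.29, padj = 0.00979 and 0.0126). Of the 8, the adult mean was above both young means for *Pecam1* and *Kdr* and below both for 5, and *Tek*, *Emcn* and *Sox18* were listed at 0 in all 3 adult libraries. The part of endothelial cells in the level of *Bmp2* was not tested.

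*Tgfb1*, which encodes TGF-beta 1, was the most abundant of the 10 in every group. It measured 260, 291 and 228 TPM in young TOM+ cDC2, 219, 239 and 232 TPM in young TOM- DC2 and 230, 211 and 193 TPM in adult TOM+ cDC2. The groups overlapped. The log2FC was 0.17 (interval -0.09 to 0.43) between young and adult TOM+ cDC2, -0.04 (-0.30 to 0.22) between young TOM- DC2 and adults and 0.21 (-0.04 to 0.47) between the young groups. The level of *Tgfb1* was 36.2 to 62.6 times that of *Bmp2* in young libraries and 6.45 to 9.30 times in adult ones. Platelets also carry *Tgfb1* transcripts: platelet and megakaryocyte markers summed to 1.1 to 6.01 TPM over all libraries, and *Tgfb1* itself ranged from 193 to 291 TPM. The part of these cells in the level of *Tgfb1* was not tested.

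The receptors moved little. TGFBR2 binds TGF-beta and recruits the signalling receptor TGFBR1. *Tgfbr2* measured 55.3, 47.2 and 48.6 TPM in young TOM+ cDC2, 52.2, 39.5 and 47.2 TPM in young TOM- DC2 and 41.4, 41.8 and 49.7 TPM in adults, with overlap between all groups in TPM and intervals of the log2FC of -0.14 to 0.27, -0.29 to 0.11 and -0.05 to 0.35 in the 3 comparisons, in the order young TOM+ against adult, young TOM- against adult and young TOM+ against young TOM-. *Tgfbr1* measured 17.3, 16.8 and 13.8 TPM, 19.8, 16.5 and 14.6 TPM and 19.9, 16.7 and 18.1 TPM in the same groups. In TPM these groups overlapped, but in edgeR's normalized read rates (CPM), which allow for the make-up of each library, every adult library (62.1 to 73.0) lay above every young one (47.0 to 61.0). *Tgfbr1* was higher in adults than in young TOM+ cDC2 by padj but under the threshold of a log2FC of 1 (log2FC -0.32 ± 0.113 SE, padj = 0.04). Its padj was under 0.05 in 13 of 23 alternatives, with a range of 0.00759 to 0.351, and was 0.053 to 0.15 without replicate 1 or 3 of young TOM+ cDC2, replicate 2 of young TOM- DC2, or replicate 1 or 3 of the adults. Against young TOM- DC2 it did not pass (log2FC -0.26, padj = 0.0896), although it did with the number of the young libraries as a block (padj = 0.024, with a range of 0.024 to 0.596 over 23 alternatives). *Tgfbr2* exceeded *Tgfbr1* in every library, by 2.81 to 3.54 times in young TOM+ cDC2, 2.39 to 3.24 times in young TOM- DC2 and 2.08 to 2.74 times in adults.

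The BMP receptors among the 10 were low. *Bmpr2* measured 2.0, 1.58 and 1.46 TPM in young TOM+ cDC2, 2.46, 1.97 and 1.30 TPM in young TOM- DC2 and 2.06, 1.5 and 1.80 TPM in adults. Its groups overlapped, and its log2FC was between -0.21 and -0.08 in the 3 comparisons. The activin receptor genes *Acvr2a* (11.0 ± 2.23, 10.3 ± 2.68 and 7.44 ± 1.27 TPM) and *Acvr2b* (4.14 ± 0.645, 3.49 ± 0.519 and 3.35 ± 0.863 TPM) stood above *Bmpr2* in every group. *Bmpr1a* rested on 1 to 7 reads per library, or 0.02 to 0.15 TPM. At this depth only changes of several-fold could have been seen, since the interval of its log2FC between young and adult TOM+ cDC2 ran from -2.06 to 1.37. On this gene 4.57% of the exonic bases are shared with an antisense transcript, whose reads could not be told apart because the counting used no strand. Among other type I receptors that BMPs use, *Acvr1* stood at 5.28 ± 0.894, 5.28 ± 0.842 and 3.91 ± 0.782 TPM and *Acvrl1* at 9.74 ± 0.286, 9.06 ± 0.821 and 6.04 ± 0.463 TPM in young TOM+ cDC2, young TOM- DC2 and adults, both far above *Bmpr1a*.

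*Smad3* and *Smad7* differed in opposite directions. SMAD3 is phosphorylated by TGFBR1 and binds DNA with SMAD4. *Smad3* measured 3.68, 2.82 and 3.38 TPM in young TOM+ cDC2, 3.76, 2.94 and 4.54 TPM in young TOM- DC2 and 2.29, 2.14 and 2.27 TPM in adults. Every young library was above every adult one, by a small step. By padj it was higher in young TOM+ cDC2 (1.35-fold, log2FC 0.44 ± 0.163 SE, padj = 0.0484) and in young TOM- DC2 (1.52-fold, log2FC 0.60 ± 0.162 SE, padj = 0.0116) than in adults, under the threshold of a log2FC of 1 in both. The first of these lies at the edge of the test, and its padj was under 0.05 in 6 of the 23 alternative settings, with a range of 0.0244 to 0.148. The second did not pass without replicate 3 of young TOM- DC2 (padj = 0.0764, with a range of 0.00487 to 0.108 over the 23).

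SMAD7 blocks the type I receptors and is itself induced by TGF-beta, which closes a feedback loop. *Smad7* measured 33.2, 35.1 and 35.4 TPM in young TOM+ cDC2, 27.8, 29.2 and 34.8 TPM in young TOM- DC2 and 81.4, 63.1 and 69.7 TPM in adults. No adult library overlapped with a young one. Adults held 2.25-fold more than young TOM+ cDC2 (log2FC -1.17 ± 0.126 SE, interval -1.44 to -0.89, padj = 1.85e-05) and 2.59-fold more than young TOM- DC2 (log2FC -1.37, interval -1.65 to -1.10, padj = 8.31e-06). The young groups overlapped (log2FC 0.21, interval -0.07 to 0.48). In each pair of young libraries with the same number TOM+ cDC2 had the higher level, by 1.20, 1.20 and 1.02 times, with padj = 0.384 in the fit with the number as a block.

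**Figure D2:**
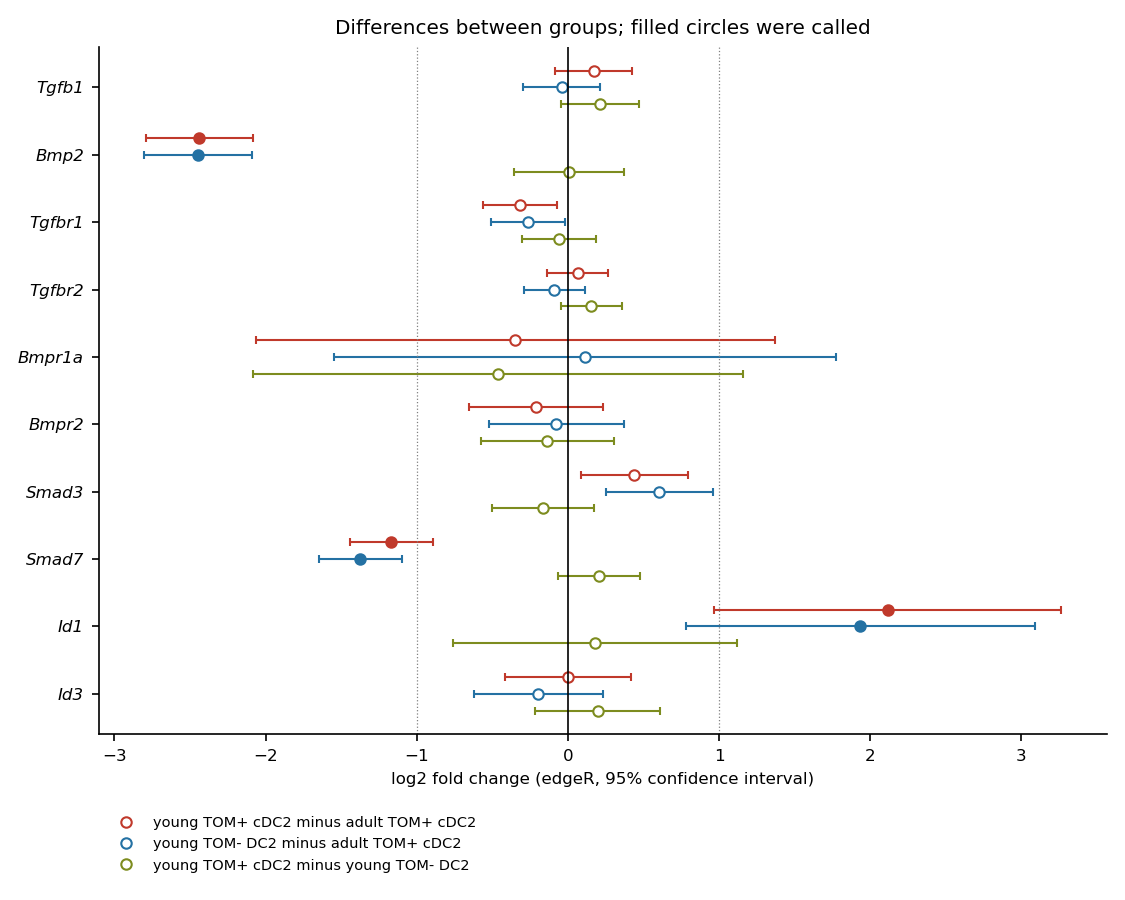
Fitted log2 fold change of the 10 genes in the 3 comparisons (horizontal axis, log2 scale), with 95% confidence intervals derived from edgeR's test. Red is young minus adult TOM+ cDC2, blue is young TOM- DC2 minus adult TOM+ cDC2 and green is young TOM+ cDC2 minus young TOM- DC2. Filled circles were called, and only those of *Bmp2*, *Smad7* and *Id1* against adults are filled, while the widest intervals belong to *Bmpr1a*.

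Of the ID genes, *Id1* was higher in young mice and *Id3* did not pass the test. *Id1* measured 2.34, 5.53 and 5.92 TPM in young TOM+ cDC2, 2.03, 3.56 and 6.40 TPM in young TOM- DC2 and 1.06, 0.76 and 1.18 TPM in adults, from 17 to 82 reads in a young and 5 to 10 reads in an adult library. Every young library was above every adult one. The level was 4.33-fold higher in young TOM+ cDC2 (log2FC 2.12 ± 0.527 SE, interval 0.97 to 3.26, padj = 0.00681) and 3.83-fold higher in young TOM- DC2 (log2FC 1.94 ± 0.530 SE, interval 0.78 to 3.09, padj = 0.013) than in adults. The second call was lost without replicate 3 of young TOM- DC2 (log2FC 1.35, padj = 0.0757) or replicate 2 of the adults (log2FC 1.80, padj = 0.05), and not when any other single library was left out, and padj ran from 0.000725 to 0.0837 over all 23 alternatives. *Id1* lies at chr2:152736251-152737410 (GRCm38, plus strand) and shares no exonic base with another gene.

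The level of *Id1* varied widely among young libraries and followed their number. Both libraries of number 81 were low, and the other 4 young libraries held 3.56 to 6.40 TPM, on average 2.45 times as much. The young libraries of number 81 were on average 2.19 times the adult level, and the other 4 were 5.35 times. Other values differed in the same libraries. *Cdkn1a*, which encodes the cell cycle inhibitor p21, stood at 115 TPM in both libraries of number 81 and at 174 to 190 TPM in the other young ones, and *Id2* went the other way, with 483 and 640 TPM against 316 to 448 TPM. Immediate early genes were low in number 81 too, as given above, but in adults, where *Id1* was lowest, they summed to 9819 to 14991 TPM. Stromal genes summed to 11.2 and 8.38 TPM in number 81 and to 0.62 to 2.90 TPM in all other libraries. Endothelial cells express *Id1* too, and their 8 markers summed to 62.1 and 63.0 TPM in number 81 and to 47.0 to 52.7 TPM in the other young libraries. The part of these differences in the level of *Id1* was not tested.

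**Figure D3:**
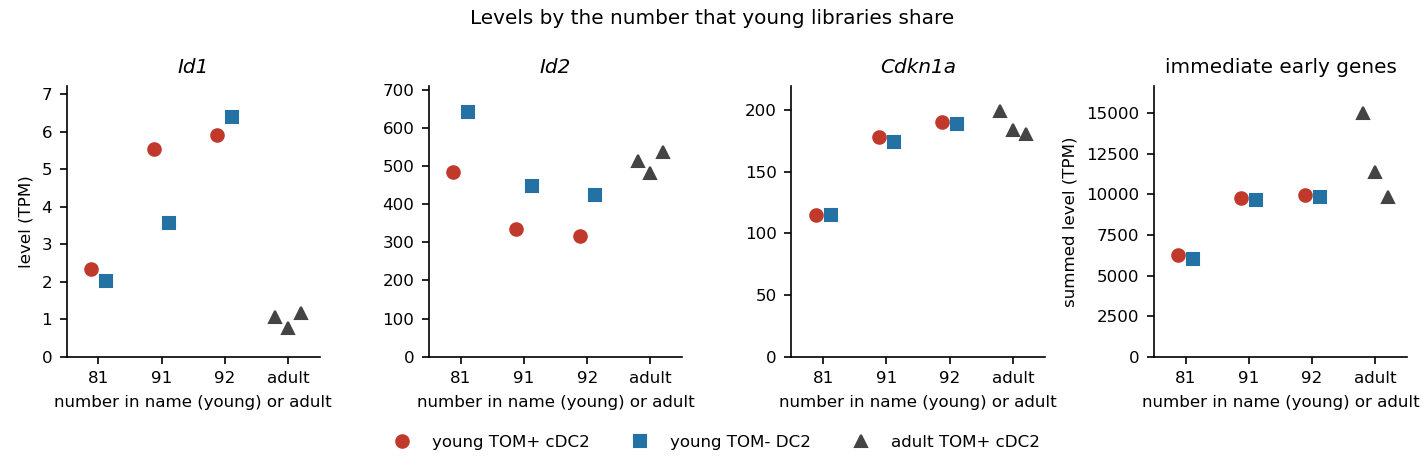
Level in TPM (linear axes that start at 0) of *Id1*, *Id2* and *Cdkn1a* and the summed level of 8 immediate early genes, by the number in the deposited name for young libraries (81, 91, 92) and side by side for the 3 adult libraries, with red circles for young TOM+ cDC2, blue squares for young TOM- DC2 and grey triangles for adult TOM+ cDC2. Both libraries of number 81 are the lowest young ones for *Id1*, *Cdkn1a* and the immediate early genes and the highest of their group for *Id2*.

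*Id3* measured 11.96, 12.7 and 10.9 TPM in young TOM+ cDC2, 11.0, 11.6 and 9.31 TPM in young TOM- DC2 and 14.1, 8.65 and 10.48 TPM in adults, and all groups overlapped. Its log2FC between young and adult TOM+ cDC2 was 0.00 with an interval of -0.42 to 0.42, which does not overlap with that of *Id1*. In TPM, *Id3* exceeded *Id1* by 1.45 to 5.42 times in young libraries and by 8.88 to 13.3 times in adult ones. The most abundant relative, *Id2*, which is not one of the 10, stood at 378 ± 91.5, 504 ± 119 and 510 ± 27.4 TPM and was lower in young than in adult TOM+ cDC2 by padj (log2FC -0.59 ± 0.147 SE, padj = 0.00644), with no call against young TOM- DC2 (log2FC -0.20, padj = 0.296).

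Ordered by level in TPM, both young groups ran *Tgfb1*, *Tgfbr2*, *Smad7*, *Tgfbr1*, *Id3*, *Bmp2*, *Id1*, *Smad3*, *Bmpr2* and *Bmpr1a*. In adults *Smad7* stood above *Tgfbr2* (63.1 to 81.4 against 41.4 to 49.7 TPM) and *Bmp2* above *Tgfbr1* (22.7 to 29.9 against 16.7 to 19.9 TPM), and *Id1* stood below *Smad3* and *Bmpr2* with no overlap. In young TOM+ cDC2 the range of *Id1* overlapped with those of its neighbours *Bmp2* and *Smad3*, so that their order was within the spread. Among all genes listed, *Tgfb1* lay at percentile 97.4, 97.0 and 97.0 in young TOM+ cDC2, young TOM- DC2 and adults, and *Bmp2* at 62.8, 62.6 and 80.4.

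The 3 called genes were set beside all 11530 genes with a mean of at least 1 TPM in a group by the correlation of log2(TPM + 1) over the 9 libraries, as a description only, since libraries of a group share age and sort. Closest to *Bmp2* were *Gramd1a* (Pearson's r = 0.996), *Cacna1s* (0.991) and *Trim30d* (0.991), and 302 genes reached 0.95. Closest to *Smad7* were *Ankrd55* (0.986), *Rassf3* (0.984) and *Itm2c* (0.977), with 69 genes over 0.95. For *Id1* these were *Pcx* (0.996), *Pgs1* (0.986) and *Cds1* (0.984), with 34 genes.

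The wider pathway was followed in 96 genes sorted into 6 lists by role, the 10 among them. Of these, 70 passed the filter on low counts. Between young and adult TOM+ cDC2, 13 of the 70 were called, 4 higher in young and 9 higher in adults, beside 5.96% and 6.86% of all genes. By padj alone 32 of the 70 passed (45.7%, beside 40.6% of all genes). Between young TOM- DC2 and adults 8 were called, 2 higher in young and 6 in adults, beside 6.5% and 4.78% of all genes. By padj alone 20 of the 70 passed (28.6%, beside 36.3% of all genes). None of the 70 was called or passed by padj between the young groups by edgeR, and none was called by DESeq2 either. In edgeR's fit without the block, 5 of the 70 had an unadjusted p under 0.05 there (*Eng*, *Bambi*, *Bmper*, *Id2* and *Tgfbi*). The shares called, 18.6% and 11.4%, stand beside 12.8% and 11.3% of all genes. Counts of the single lists below stand beside the same shares of all genes, and no list had more than 18 genes tested. The median log2FC of the 70 genes was -0.01 and -0.03 against adults, beside 0.05 and 0.07 over all genes tested, and their median size without sign was 0.54 and 0.51, beside 0.43 and 0.40.

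Among 26 ligands, 12 passed the filter, and 4 of the 12 were called between young and adult TOM+ cDC2, all higher in adults. With 12 genes this is a small count beside the 12.8% of all genes called, 6.86% being higher in adults. Besides *Bmp2*, *Gdf15*, a stress-induced member of the family, rose from 1.35 ± 0.674 TPM in young to 3.67 ± 1.31 TPM in adult TOM+ cDC2 (log2FC -1.59, padj = 0.025). It was not called against young TOM- DC2 (2.19 ± 1.25 TPM, log2FC -0.85, padj = 0.186). The other called ligands, *Gdf3* and *Gdf11*, were under 1 TPM in every group. Against young TOM- DC2, 2 ligands were called, *Bmp2* and *Tgfb3*, the latter also under 1 TPM. *Bmp8a* was higher in adults by padj in both comparisons (10.7 ± 3.45 TPM against 6.81 ± 2.16 and 6.64 ± 1.70 TPM). Its TPM overlapped between groups, with up to 8.9 and 8.6 TPM in the young groups and 8.0 TPM in the lowest adult library.

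Of 12 genes that hold TGF-beta latent or release it 10 passed the filter, of which 3 were called against young TOM+ cDC2 (*Lrrc32*, *Ltbp3* and *Ltbp4*, the last lower in adults) and 1, *Lrrc32*, against young TOM- DC2. *Ltbp3* and *Ltbp4* were under 1 TPM in every group. *Ltbp4* had 55, 17 and 3 reads in young TOM+ cDC2, 21, 0 and 0 in young TOM- DC2 and 0 in every adult library. Stromal genes were likewise highest in the libraries of number 81, as given for *Id1*. The part of stromal cells in the level of *Ltbp4* was not tested. LRRC32, also called GARP, ties latent TGF-beta to the cell surface. *Lrrc32* measured 2.20, 1.64 and 2.56 TPM in young TOM+ cDC2, 2.96, 1.81 and 2.81 TPM in young TOM- DC2 and 8.55, 9.91 and 7.63 TPM in adults. All adult libraries stood well above all young ones, by 4.49-fold (log2FC -2.17 ± 0.197 SE, padj = 5.35e-06) and 3.87-fold (log2FC -1.95 ± 0.195 SE, padj = 1.44e-05). Its relative *Nrros*, which does the same in myeloid cells, was far more abundant, with 492 ± 23.3, 502 ± 27.2 and 637 ± 81.3 TPM, and was higher in adults by padj, 1.41-fold in both comparisons. The level of *Nrros* was 168 to 284 times that of *Lrrc32* in young and 62.1 to 95.2 times in adult libraries. *Thbs1*, which encodes thrombospondin 1, an activator of latent TGF-beta, was lower in adults (21.4 ± 1.70 TPM) than in young TOM- DC2 (35.6 ± 4.93 TPM, log2FC 0.59, padj = 0.0126), and its padj against young TOM+ cDC2 (29.4 ± 5.39 TPM) was 0.105.

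Of 14 receptors and coreceptors 12 passed the filter, and the only call was of *Tgfbr3*, which was under 1 TPM in every group. *Acvrl1*, the BMP9 and BMP10 receptor also called ALK1, was higher in young cells by padj in both comparisons (log2FC 0.56 and 0.43, padj = 0.00336 and 0.0181), and its coreceptor *Eng* was higher in young TOM+ cDC2 than in adults (3.15 ± 0.486 against 1.38 ± 0.196 TPM, log2FC 0.98, padj = 0.0014), while young TOM- DC2 lay between them at 2.03 ± 0.445 TPM (log2FC 0.31 against adults, padj = 0.242). The activin receptor *Acvr2a* was also higher in young TOM+ cDC2 by padj (11.0 ± 2.23 against 7.44 ± 1.27 TPM, log2FC 0.44, padj = 0.0473). Macrophages express several of these receptors. Their marker genes summed to 115 to 143 TPM in young TOM+ cDC2, 180 to 224 TPM in young TOM- DC2 and 77.4 to 112 TPM in adults. The part of other cells in these levels was not tested.

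None of the 5 tested receptor-regulated and common SMADs was called, nor was *Zfyve9*, which encodes the SMAD anchor SARA. *Smad4* and the BMP-branch transducer *Smad1* were the most abundant, with 94.2 ± 9.57, 100 ± 13.1 and 125 ± 12.1 TPM and 51.3 ± 6.35, 54.0 ± 7.45 and 61.9 ± 5.86 TPM in young TOM+ cDC2, young TOM- DC2 and adults. Both were higher in adults by padj in both comparisons, *Smad4* with a log2FC of -0.53 and -0.48 and *Smad1* with -0.41 and -0.36. The TPM of *Smad1* overlapped with adults in both young groups. That of *Smad4* overlapped in young TOM- DC2 (up to 114 TPM, against 112 TPM in the lowest adult library). *Smad2* (20.6 ± 0.927, 21.2 ± 1.13 and 16.7 ± 1.25 TPM) had a padj of 0.0664 and 0.061. *Smad3*, at 2.23 to 3.75 TPM on average, was the only SMAD of this kind that was higher in young cells by padj, and it stood far below *Smad2* in every group.

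The inhibitory SMADs differed in opposite directions. While *Smad7* was higher in adults, *Smad6* measured 1.54, 1.33 and 1.02 TPM in young TOM+ cDC2, 1.48, 1.11 and 1.34 TPM in young TOM- DC2 and 0.23, 0.09 and 0.14 TPM in adults. These levels rest on 33 to 55 reads in a young and on 5, 2 and 4 reads in the adult libraries. No adult library overlapped with a young one (log2FC 2.93 ± 0.378 SE, padj = 7.29e-05, and 2.95 ± 0.379 SE, padj = 8.47e-05), a difference of 7.60-fold and 7.72-fold. The level of *Smad7* was 18.8 to 34.7 times that of *Smad6* in young and 354 to 701 times in adult libraries. Like *Id1*, *Smad6* is a well-known target of BMP signalling, but in the libraries of number 81, where *Id1* was low, it was higher (1.54 and 1.48 TPM) than in the other young libraries (1.02 to 1.34 TPM). Endothelial cells also express *Smad6*, and 7 of their 8 markers were likewise higher in both libraries of number 81 than in the other young ones. Against adults *Sox18* was called in young TOM+ cDC2 and *Stab2* in young TOM- DC2, while *Pecam1* and *Kdr* were not lower in adults, as given for *Bmp2*. *Cdh5*, *Tie1* and *Sox18* reached 0.73, 1.04 and 0.80 TPM in young libraries, all in replicate 1 of young TOM+ cDC2, and at most 0.27, 0.07 and 0 TPM in adult ones. *Cdh5* and *Tie1* did not pass between young and adult TOM+ cDC2 by edgeR (padj = 0.151 and 0.115). In replicate 3 of young TOM+ cDC2, where *Smad6* was at 1.02 TPM, these 3 stood at 0.19, 0 and 0.05 TPM. *Pecam1*, *Kdr*, *Tek*, *Emcn* and *Stab2* stood there at 50.5, 0.95, 0, 0 and 0.04 TPM. The part of endothelial cells in the level of *Smad6* was not tested.

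Of 23 inhibitors 18 passed the filter, and 3 were called in each comparison with adults. *Bmper*, an extracellular regulator of BMPs, was called against young TOM+ cDC2 (0.510 ± 0.0436 against 1.11 ± 0.451 TPM, log2FC -1.28, padj = 0.022), and *Nbl1*, which encodes a secreted BMP antagonist, was called against young TOM- DC2 (1.26 ± 0.179 against 2.58 ± 1.03 TPM, log2FC -1.16, padj = 0.0217). *Skil*, which encodes the SMAD repressor SnoN and is itself induced by TGF-beta, was higher in adults by padj, with 64.4 ± 4.21, 74.8 ± 5.05 and 113 ± 18.7 TPM (log2FC -0.93 and -0.75, padj = 5.37e-05 and 0.00033). The gene of the corepressor TGIF2 was also higher in adults (35.8 ± 1.06, 40.2 ± 6.20 and 57.6 ± 10.9 TPM, log2FC -0.75 and -0.68, padj = 0.000946 and 0.00209). *Tgif1* passed against young TOM+ cDC2 (286 ± 55.1 against 441 ± 144 TPM, log2FC -0.74, padj = 0.0186), and against young TOM- DC2 its log2FC was -0.57 (padj = 0.0624). Their relative *Ski* did not pass and varied widely among libraries (7.97 to 29.5 TPM in young TOM+ cDC2, 4.13 to 13.3 TPM in adults, log2FC 1.05, padj = 0.0727). *Fkbp1a*, whose product FKBP12 keeps type I receptors inactive, was higher in young cells (171 ± 8.25 and 179 ± 5.89 TPM against 103 ± 4.88 TPM, log2FC 0.57 and 0.61, padj = 0.000199 and 0.000151), and so by padj was the ubiquitin ligase gene *Smurf1* in young TOM+ cDC2 (log2FC 0.33, padj = 0.0239). The phosphatase gene *Ppm1a* did not pass (padj = 0.545 and 0.688).

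**Figure D4:**
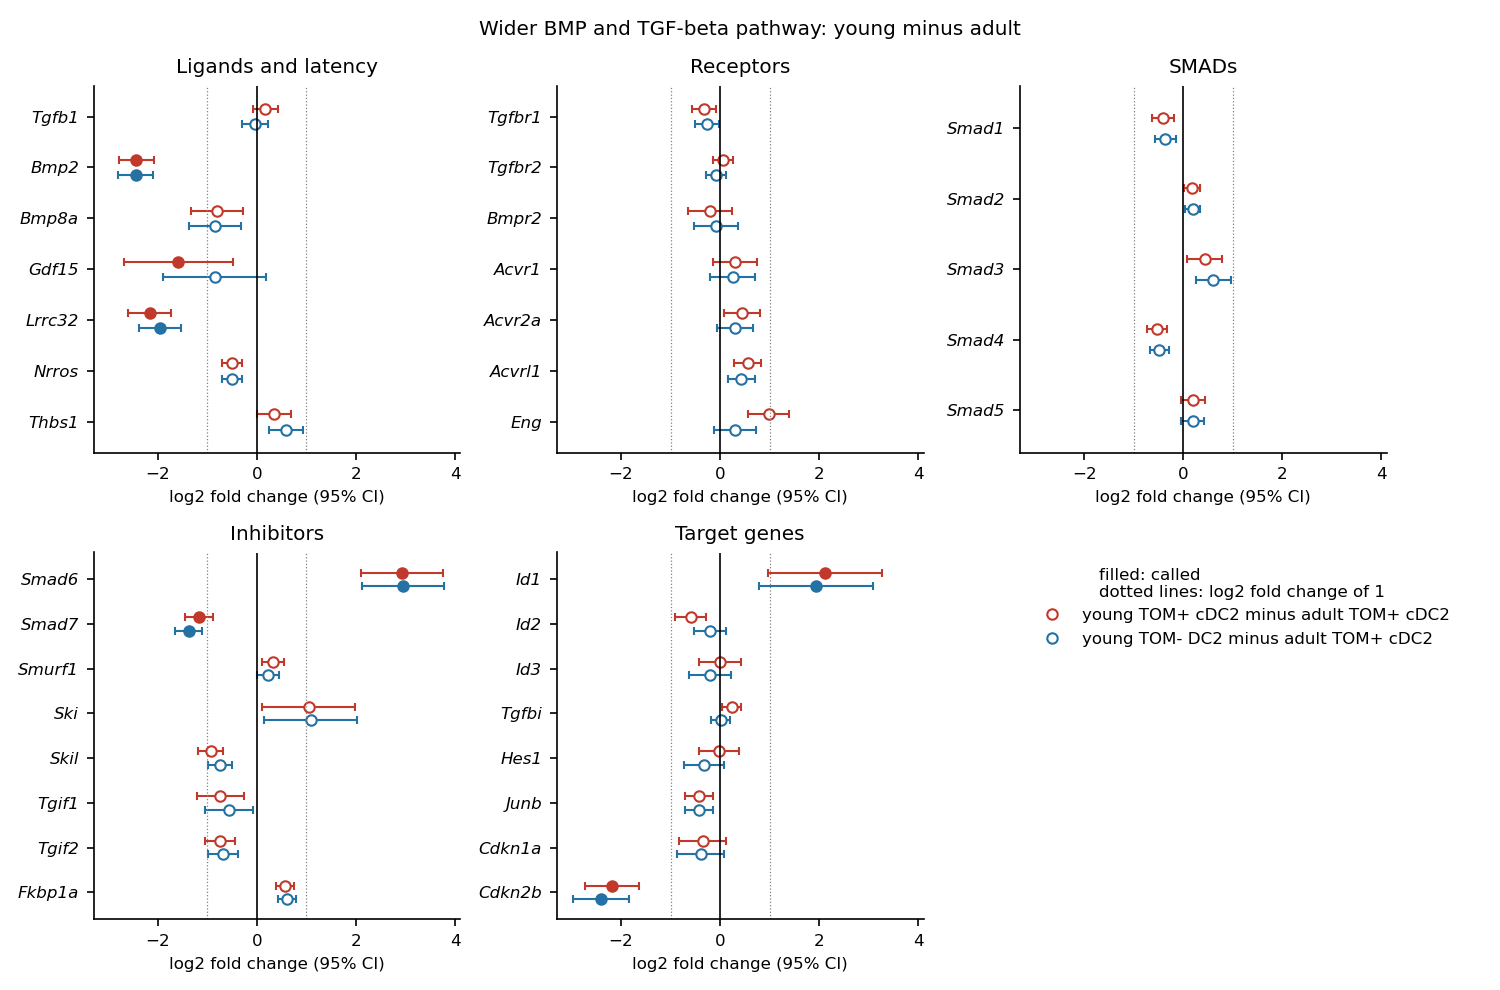
Fitted log2 fold change (horizontal axis, log2 scale, 95% confidence intervals derived from edgeR's test) of genes of the wider pathway by role. Red is young minus adult TOM+ cDC2 and blue is young TOM- DC2 minus adult TOM+ cDC2. Filled circles were called. *Bmp2*, *Lrrc32*, *Smad7* and *Cdkn2b* lie beyond -1 and *Smad6* and *Id1* beyond 1 in both comparisons.

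Target genes did not move together. Of 14 in the list 12 passed the filter, and 2 were called in each comparison with adults, *Id1* and *Cdkn2b*. CDKN2B, also called p15, is a cell cycle inhibitor that TGF-beta induces. *Cdkn2b* measured 2.28, 1.56 and 1.79 TPM in young TOM+ cDC2, 2.41, 1.41 and 1.24 TPM in young TOM- DC2 and 7.89, 6.92 and 8.52 TPM in adults. Every adult library was above every young one, by 4.53-fold (log2FC -2.18 ± 0.251 SE, padj = 3.12e-05) and 5.28-fold (log2FC -2.40 ± 0.258 SE, padj = 2.4e-05). *Tgfbi*, named for its induction by TGF-beta, was slightly higher in young TOM+ cDC2 than in adults by padj (294 ± 27.6 against 228 ± 12.5 TPM, log2FC 0.23, padj = 0.0473) and did not differ from adults beyond the spread in young TOM- DC2 (256 ± 23.5 TPM, log2FC 0.01, interval -0.18 to 0.20). *Junb* was higher in adults by padj in both comparisons, with a log2FC of -0.43 in each. *Hes1* and *Cdkn1a* did not pass in either.

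In young TOM+ cDC2 and young TOM- DC2 the 10 genes were measured at levels that the test could not tell apart, and the intervals show how large a difference could have been missed. For *Tgfb1*, *Tgfbr1*, *Tgfbr2*, *Bmp2*, *Smad3* and *Smad7* the 95% interval of the log2FC stayed within 0.50 in either direction, for *Bmpr2* and *Id3* within 0.61, for *Id1* it ran from -0.76 to 1.12 and for *Bmpr1a* from -2.08 to 1.16. With the number of the libraries as a block, the unadjusted p was 0.0404 for *Tgfb1* (log2FC 0.21) and 0.0474 for *Smad7* (log2FC 0.21), and the padj of all 10 was at least 0.355 in edgeR's fit.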

How the data were processed

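RNA of sorted cells was amplified as SMART-seq cDNA, a method without strand information, and sequenced. The authors aligned reads to mm10 with STAR and deposited counts of reads per gene, of which the unstranded column was used without the lines for unassigned reads, which held 26.1% to 31.6% of all reads. The authors also deposited RSEM's expected counts (rounded for an alternative) and TPM. Tool versions are not given in the sources used here.

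Counts were tested in R 4.3.3 with edgeR 4.0.16 (quasi-likelihood, TMM normalization, all 9 libraries in 3 groups) on the 14452 genes whose mean count reached 1, and called at a log2FC beyond 1 and padj under 0.05. The study's own tool, DESeq2, was run as an alternative (1.42.0, with apeglm 1.24.0), as were limma 3.58.1 on log2(TPM + 1) and log2(TPM + 0.1), other normalizations and filters, fits on 2 groups, fits without each library, and the number of the young libraries as a block. Leaving out both young libraries of a number was added after seeing the data. The fits were tested on simulated data. The correlations between same-numbered young libraries were 0.501 to 0.746, so the numbers were taken as pairs. What the numbers stand for is not stated.

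Named are the 10 members, genes of the 6 pathway lists that were called with a mean of at least 1 TPM in a group, and those with at least 20 TPM. Genes named outside this rule (those under 1 TPM, *Bmp8a*, *Acvr1*, *Acvr2a*, *Acvr2b*, *Acvrl1*, *Eng*, *Zfyve9* and *Bambi*) were chosen after their values were seen. Members and lists were chosen with earlier results of these data known. No 2 libraries of a group were copies (lowest chi-square per gene 8.74). RSEM assigned between 4.44% fewer and 1.19% more reads to each member than STAR. STAR counts take no multimapping reads. Reads are PCR products without molecular identifiers, so depth limits cover counting error only. FPKM values were not used.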

Additional observations from a re-analysis of the deposited data

How the results depend on the processing

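The 10 members were recomputed under 23 alternatives in each of the 3 comparisons, except *Bmpr1a*, which 1 filter removed. Their calls stayed as given in 684 of these values and 3 lost the call, all for *Id1* between young TOM- DC2 and adult TOM+ cDC2: without young TOM- DC2 replicate 3 (log2FC 1.35, padj = 0.0757), without adult replicate 2 (log2FC 1.80, padj = 0.05) and without both young libraries of number 92 (log2FC 1.35, padj = 0.0837). Over the 23 alternatives of that result edgeR, DESeq2 and limma gave a log2FC of 1.23 to 2.24 and a padj of 0.000725 to 0.0837. The log2FC of *Bmp2* ran from -2.53 to -2.12 and from -2.64 to -2.11 against adults, and that of *Smad7* from -1.24 to -1.02 and from -1.52 to -1.20. The padj of *Tgfbr1* against young TOM+ cDC2 was under 0.05 in 13 of the 23, and that of *Smad3* in 6 against young TOM+ cDC2 and 21 against young TOM- DC2. The count of pathway genes called between young and adult TOM+ cDC2 was 13, and 5 with limma on log2(TPM + 1), with or without the filter, and 8 without both young libraries of number 91. A fold change on that scale understates the change of low genes. With single libraries left out, the count was 10 to 15. The replicate block changed no call among the 10, counted 14 pathway genes against young TOM+ cDC2 and 9 against young TOM- DC2 in place of 13 and 8, and gave 1934, 1713 and 211 calls over all genes, against 1853, 1631 and 170. With log2(TPM + 0.1) the median of all genes moved to 0.17 and 0.22 against adults, from 0.05 and 0.07, and log2FC on that scale are read relative to this shift. The number of reads limits *Bmpr1a*, *Id1* and *Smad6*.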
